A study of Oryza sativa with 6 samples.

Results

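The rare miRNA families of rice numbered 400 or more were followed in small RNA of germinating seeds. Members were chosen by name: every miRNA name whose family number is at least 400, apart from 16 families of that range (miR408, miR444, miR528, miR529, miR535, miR820, miR827, miR1425, miR1432, miR1861, miR1862, miR1863, miR3630, miR5144, miR5504 and miR5794). This left 115 of the 641 names in the deposited table and 76 of its 113 families. The hot group was seeds of the rice cultivar Kasalath germinated at 35 °C in a cooled incubator, and the normal group was seeds of that cultivar germinated at 25 °C in the laboratory under a cardboard box. Each group has 3 libraries, called biological triplicates in the series' text. The groups therefore differed in the place of germination as well as in temperature, and the effects of place and temperature cannot be told apart. All seeds, 40 in all and 5 to a dish, stood on tissue damped with tap water until day 8, and the labelled age was 5 days after germination. The labels do not say how the 4 dishes at each temperature were made into libraries, so the spread between libraries may be partly technical. Whole seeds were used, so fewer cells making a miRNA and less of it per cell cannot be told apart.

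Plant miRNAs are short RNAs cut by Dicer-like enzymes from hairpin transcripts and loaded into Argonaute proteins, which they guide to matching messenger RNAs. A small set of families is shared across flowering plants and is usually abundant. Many more families are known from single lineages, are often made from few loci at low levels, and have few established targets. Family numbers were assigned in order of registration, so high numbers mostly stand for families found later and in fewer species. The table carries no species prefix and no marker of a tissue, so neither the rice origin of a name nor the tissue could be checked in it. Several names were first given in other plants, among them miR1310 in pine, miR479 in poplar, miR894 in moss and miR1120 in wheat. The members are therefore called rare families here, without a claim of rice origin for each.

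Depth set what could be seen. The library total behind the deposited normalised values ran from 157488 to 243859 in the hot libraries and from 250255 to 275549 in the normal libraries, with hot library 1 the lowest. The column sums of the table ran the other way, from 169694 to 377473 in the hot libraries and from 136294 to 203192 in the normal libraries, and a column sum is not a number of reads, since reads can be entered under several names. A miRNA with no count in hot library 1 could have been present at up to 19.0 counts per 1000000 of the library total, taking 3 counts as the limit that a count of 0 allows. In the other libraries that limit was 10.9 to 12.5. These limits and the intervals below cover counting error only.

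Most of the rare names were seen a few times. The median pooled count of a name over all 6 libraries was 2, and 48 of the 115 names had a single count in all. Pooled counts of 3 or fewer were held by 82 names, or 71.3%. The highest pooled count was 49, and 2 names, mir1310 and mir5083, reached a count of 10 in any library. For comparison, the median pooled count was 60 for the 446 names of families under 400 and 21.5 for the 80 names of the families left out above. The 76 families together had 396 counts, adding rows with identical counts within a family once. The first 3 of them (miR5083, miR1423 and miR1310) held 30.6% of these counts and the first 10 held 56.3%.

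Few rare names recurred. Of the 115 names, 52 were seen in 1 library, 26 in 2, 22 in 3, 8 in 4, 2 in 5 and 5 in all 6. The 5 names seen in every library were mir1310, mir1423-5p, mir1871, mir1878 and mir5083. Of the rare names 4.35% were seen in all 6 libraries, against 50.0% of the names of the left-out families. By group, 40 rare names were seen in both, 27 in hot libraries alone and 48 in normal libraries alone. Identical rows enter these numbers once per name, as with mir812a to mir812e, seen in normal libraries alone. As families, 19 were seen in hot libraries alone and 21 in normal libraries alone. Of the 446 names under 400, 16 were seen in hot and 14 in normal libraries alone. For the 80 names of the left-out families these were 15 and 7. No rare name found in a single group had more than 4 counts in all.

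**Figure D1:**
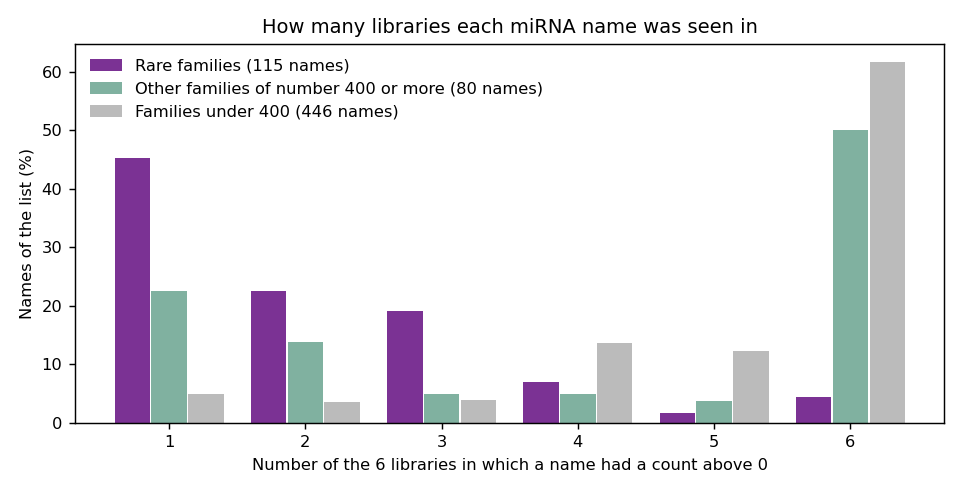
Percent of names (vertical axis) by the number of the 6 libraries in which the name had a count above 0 (horizontal axis), for the 115 rare names, the 80 names of the other families of number 400 or more and the 446 names of families under 400. Rare names pile up at 1 library (45.2%), the other lists at 6.

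Fewer rare names were found in the hot libraries on average, and the groups overlapped. A count above 0 was held by 19, 30 and 51 names in hot libraries 1 to 3, against 49, 36 and 57 names in normal libraries 1 to 3. Hot library 3 lay above normal libraries 1 and 2. The means were 33.3 ± 16.3 names in hot and 47.3 ± 10.6 names in normal libraries (SD, n = 3 each), a difference of -14.0 (exact two-sided permutation p = 0.3, where the smallest p that 3 against 3 libraries allow is 0.1). Counted as families, 18, 26 and 42 of 76 were seen in hot libraries 1 to 3, against 31, 27 and 37 in normal libraries 1 to 3, a difference of -3 between the means (exact permutation p = 0.8). Without hot library 1, the shallowest by library total, the family difference turned to 2.33. Over distinct count patterns the difference in names was -5 (exact permutation p = 0.6).

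Bringing the libraries to a common depth gave different answers for the 2 depths. At the smallest column sum, the expected number of names was 16.1, 15.3 and 24.6 in hot libraries, against 46.8, 36 and 42.4 in normal libraries. All hot values were then below all normal ones, with a difference of -23.1 (exact permutation p = 0.1, the smallest possible). Families followed, with 15.4, 14.0 and 21.4 in hot libraries, against 29.9, 27 and 28.6 in normal libraries, a difference of -11.6 (exact permutation p = 0.1). A column sum is not a number of reads, so it is not a depth in the usual sense. The smallest, 136294, was that of normal library 2, whose library total of 250255 was above that of every hot library. Of the 2 depths tried, the separation in detection appeared at the smallest column sum alone. At the smallest library total, a depth added after the data were seen, the expected number of names was 19.0, 21.9 and 38.2 in hot libraries, against 35.6, 25.1 and 37.7 in normal libraries. These overlapped, with a difference of -6.44 names (exact permutation p = 0.4) and of -0.0667 families (exact permutation p = 1.0).

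The summed level depended on what it was set against. Per 1000000 of the library total, the rare families had 229, 204 and 357 counts in hot libraries 1 to 3, against 288, 224 and 334 in normal libraries 1 to 3. The means, 263 ± 82.1 in hot and 282 ± 55.3 in normal libraries (SD, n = 3 each), differed by -18.8 (exact permutation p = 0.9). Per 1000000 of the table's counts, with identical rows added once, the values were 239, 168 and 262 in hot libraries, against 580, 464 and 511 in normal libraries. All hot libraries lay below all normal ones on this scale (223 ± 49.0 in hot and 519 ± 58.5 in normal libraries, SD, n = 3 each, exact permutation p = 0.1, the smallest possible). Nearly all counts of the table belong to families under 400, whose own sums ran from 949609 to 1355230 per 1000000 of the library total in hot libraries, against 479359 to 649384 in normal libraries. These sums add identical rows of a family once. What the library total counts is not given in the headers, and why some sums passed 1000000 was not tested. Set against the counts of the left-out families alone, the rare families had 46095, 35766 and 48173 per 1000000 in hot libraries. In normal libraries they had 106443, 82963 and 94845 (exact permutation p = 0.1, the smallest possible). Per 1000000 of the library total, the left-out families had 4959 to 7406 in hot libraries, against 2697 to 3520 in normal libraries. The part of the shifts in families under 400 and in the left-out families in these comparisons was not tested.

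**Figure D2:**
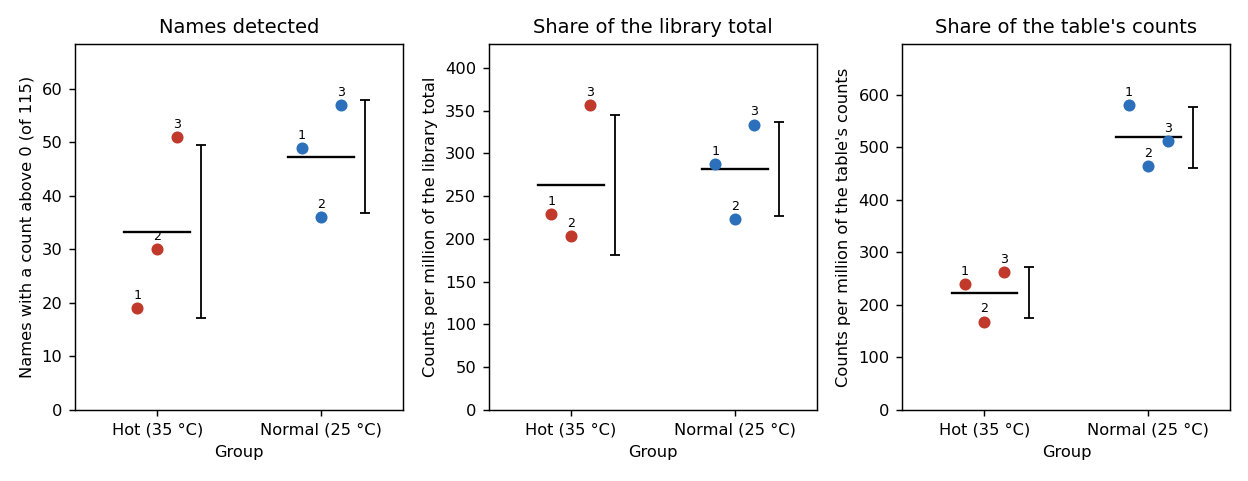
Rare families in each library, hot left of normal: names with a count above 0, summed counts per 1000000 of the library total, and summed counts per 1000000 of the table's counts. Points are libraries with their replicate number, horizontal lines are means and bars are SD (n = 3). The groups overlap in the first 2 panels and are apart in the last.

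None of the 115 names and none of the 76 families was abundant enough for the test used on the whole table. That test was edgeR's quasi-likelihood test under TMM scaling, on names that pass its filter on low counts. It covered 253 names and called 22.9% of them at adjusted p under 0.05, and it covered 32 families and called 34.4%. Of the left-out families, 13 of 16 passed that filter, and 0 of the 76 rare families did, so the choice of members set aside every family of this range that could be tested. Run again on all names without the filter, edgeR called 0 of the 115 rare names, against a background of 10.3% called over 641 names. For families without the filter it called 0 of 76, against a background of 4.42% called. Also without the filter, DESeq2 called 0 of 115 rare names, against 7.33% called, and 1 of 76 rare families, against 9.73%. limma-voom called 0 of 115 names, against 9.83% called, and 1 of 76 families, against 6.19%. All these backgrounds are shares at adjusted p under 0.05. An unadjusted p under 0.05 was held by 4 rare names and 4 rare families in edgeR. It was held by 1 rare name and 1 rare family in DESeq2, and by 19 rare names and 6 rare families in limma-voom. Names with identical rows can repeat the same result. No share over all names or families was computed for the unadjusted p, so these counts have no background to be set against. The family called by DESeq2 and by limma-voom was miR1310.

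miR1310, a single row, was the family with the clearest contrast. It had 2, 1 and 2 counts in hot libraries 1 to 3, against 6, 13 and 9 counts in normal libraries 1 to 3. Every hot library was below every normal library, as raw counts and per 1000000 of the library total, where the values were 12.7, 4.16 and 8.20 in hot libraries and 22.7, 51.9 and 32.7 in normal libraries. The pooled counts, 5 in hot and 28 in normal libraries, gave a ratio of hot over normal of 0.111 with TMM scaling (exact binomial 95% interval 0.0333 to 0.290) and of 0.220 with the library totals (0.0663 to 0.577). TMM ratios of families here and below use the factors of the fit on names. These were 0.928 to 0.973 in hot and 0.967 to 1.15 in normal libraries. The fit on families had 0.806 to 0.906 in hot and 1.13 to 1.23 in normal libraries. Ratios and limits would be higher with its scaling, and were not computed. It was the only one of the 76 families whose interval lay below 1 under both scalings. Of the 76 intervals, 8 lay below 1 and 0 above with TMM of the fit on names. With the library totals 1 lay below and 3 above. No such share over all families of the table was computed, so these counts are no result about the rare families. No allowance was made for picking 1 family among 76. Per library total, the exact permutation p over the libraries was 0.1 for miR1310, the smallest possible. In edgeR without the filter the log2 fold change of mir1310 was -2.84 (SE 0.93, adjusted p = 0.0790), and that of the family sum was -2.59 (SE 0.997, adjusted p = 0.123). Over the 11 fits without a filter the family's log2 fold change stayed negative, between -3.01 and -2.09. The adjusted p ran from 0.0149 (DESeq2) to 0.491 (edgeR without hot library 2), and 4 of the 11 fits called it. These 4 were DESeq2, limma-voom, the fit with replicate number as a block, and edgeR without hot library 1.

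Non-overlap of the groups needs a count in all 3 libraries of the higher group. Among the 76 rare families 7 had this in hot and 11 in normal libraries. Among the 115 names it held for 7 in hot and 13 in normal libraries. Low counts thus capped the shares of rare families and names, and the shares over all families or names are not a like comparison. Per 1000000 of the library total, 1 of 76 families (miR1310) had all hot libraries below all normal ones, against 3.54% of all 113 families, and 2 (miR1423 and miR2863) had all hot libraries above, against 11.5%. Among names, 4 of 115 had all hot libraries below, against 2.18% of all 641 names, and 2 had all hot libraries above, against 22.6%. The 4 names were mir1310 and the identical rows mir812n-3p, mir812t and mir812u. With TMM-scaled column sums 5 families were lower in every hot library, against 11.5% of all families: miR1310, miR1870, miR1878, miR1883 and miR5513. With that scaling 1 family, miR2863, was higher in every hot library, against 7.08%. Library totals raise hot values relative to TMM, and the median log2 fold change of all tested names was 0.01 with TMM and 0.99 with the totals.

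miR5083 had the most counts of all rare families. Its single row held 7, 7 and 16 counts in hot libraries 1 to 3, against 8, 2 and 9 counts in normal libraries 1 to 3. The groups overlapped, with hot library 3 highest and normal library 2 lowest. The ratio of pooled counts, 30 in hot and 19 in normal libraries, was 0.978 with TMM (95% interval 0.533 to 1.84) and 1.94 with the library totals (1.06 to 3.65), so only the second interval lay above 1. Per library total, the exact permutation p over the libraries was 0.3.

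miR1423, present as the 5p name alone, was counted in every library. It had 9, 8 and 6 counts in hot libraries 1 to 3, against 4, 6 and 6 counts in normal libraries 1 to 3. Per 1000000 of the library total these were 57.1, 33.3 and 24.6 in hot libraries, against 15.1, 24.0 and 21.8 in normal libraries, with all hot values above all normal ones by a small margin (exact permutation p = 0.1). With TMM the groups overlapped and the ratio of pooled counts, 23 in hot and 16 in normal libraries, was 0.890 (95% interval 0.450 to 1.80). With the totals the ratio was 1.77 (0.895 to 3.58).

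miR1871, miR1878, miR5513 and miR1876 had fewer pooled counts in hot libraries, with 1 scaling deciding whether counting error could cover the difference. miR1871, described in rice as acting on a microfibrillar-associated protein gene, had 1, 1 and 3 counts in hot libraries 1 to 3, against 7, 1 and 8 counts in normal libraries 1 to 3. Normal library 2 stood with the hot libraries, so the groups overlapped. The 2 rows of miR1878 summed to 1, 1 and 2 counts in hot libraries, against 2, 3 and 9 in normal libraries. Much of that contrast came from normal library 3, where mir1878 alone had 8 counts. miR5513 had 1, 0 and 2 counts in hot libraries, against 3, 2 and 5 in normal libraries, and miR1876 had 1, 0 and 1, against 2, 0 and 6. The ratios with TMM were 0.194 for miR1871, 0.177 for miR1878, 0.186 for miR5513 and 0.155 for miR1876. Each had an interval below 1 under the TMM scaling of the fit on names. The upper limits were 0.553, 0.563, 0.721 and 0.776 in the same order, with miR1876 nearest to 1. These limits would be higher under that of the fit on families, and whether each stays below 1 there was not computed. The interval of miR1871 stayed below 1 with TMM when any library was left out. That of miR1878 did not without normal library 3 (ratio 0.273, upper limit 1.27). The miR5513 interval reached 1.15 without hot library 2 (ratio 0.296) and 1.05 without normal library 3, and without hot library 3 its ratio was 0.110. The miR1876 interval reached 1.24 without hot library 2 (ratio 0.247), 1.03 without hot library 3 and 4.71 without normal library 3 (ratio 0.342), and without hot library 1 its ratio was 0.0953. With the library totals each of these 4 intervals included 1, with ratios of 0.385, 0.352, 0.369 and 0.308 in the same order.

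**Figure D3:**
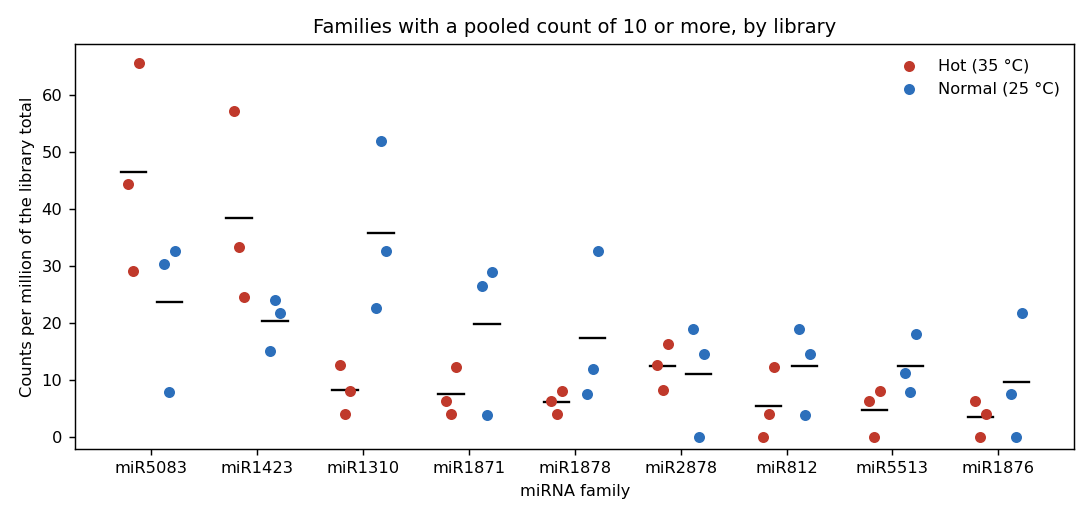
Counts per 1000000 of the library total (vertical axis) for the 9 families with a pooled count of 10 or more, hot left of normal. Points are libraries and lines are group means (n = 3). The groups of miR1310 are apart, with hot lower, and those of miR1423 are narrowly apart, with hot higher.

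Of the transposon-related families, miR812 and miR815 were in the table. Families of this kind share sequence with miniature inverted-repeat transposons, and miR812 matches elements that occur in many copies in the rice genome. miR812 had the most names of any rare family, 15 names in 5 distinct count patterns, so its rows are not separate measurements. Its sum, with identical rows added once, was 0, 1 and 3 counts in hot libraries, against 5, 1 and 4 counts in normal libraries. The pooled ratio of 4 hot to 10 normal counts was 0.248 with TMM of the fit on names (95% interval 0.0567 to 0.859). It was 0.492 with the totals (0.113 to 1.71). With TMM its upper limit passed 1 without hot library 1 (1.06), hot library 2 (1.15) or normal library 1 (1.67, ratio 0.359), and the ratio was 0.110 without hot library 3. Summing all 15 names, repeated rows included, gave 0.0728. The rows mir812n-3p, mir812t and mir812u each had 0, 0 and 0 counts in hot libraries, against 1, 1 and 2 in normal libraries. The rows mir812a to mir812e had none in hot libraries, against 2, 0 and 1 in normal libraries. In the other direction, mir812v had 0, 1 and 2 counts in hot libraries, against 1, 0 and 0. miR815 had 1 count in normal library 2, the same under each of its 3 names, and none elsewhere.

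Reproductive phasiRNA triggers were close to the limit of detection. miR2118, which in rice panicles starts the production of phased small interfering RNAs from long non-coding transcripts, had no count in hot libraries, against 3, 0 and 0 counts in normal libraries. Its partner in that pathway, miR2275, and miR530 had no row in the table.

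The families seen in hot libraries alone had at most 6 counts. miR2863 was the only rare family found in all 3 libraries of a group and in none of the other, with 3, 2 and 1 counts in hot libraries and 0, 0 and 0 in normal libraries. The lower limit of the exact 95% interval for its ratio of hot over normal was 1.45 with the library totals and 0.729 with TMM, so the second interval included 1. Its row mir2863a held 1, 2 and 1 of the hot counts and mir2863b the 2 others, both in hot library 1. miR1846 followed with 0, 2 and 3 counts in hot libraries and none in normal libraries, spread over 5 names in 3 patterns. The lower limit of its ratio was 1.13 with the library totals and 0.567 with TMM. miR2055 had 0, 1 and 3 and miR479 had 0, 1 and 2 in hot libraries, and neither had any in normal libraries. Among names, mir1857-5p had 0, 1 and 3 counts in hot libraries and none in normal libraries.

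The families seen in normal libraries alone had at most 4 counts, and each was missing from at least 1 normal library. miR1436 had 0, 4 and 0 counts in normal libraries, all in normal library 2. miR5079 had 2, 0 and 2, the same in both of its names. Both had no count in hot libraries. For each, the upper limit of the ratio of hot over normal was 0.938 with TMM and 1.86 with the library totals. In all, 19 families were seen in hot libraries alone, 21 in normal libraries alone and 36 in both.

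**Figure D4:**
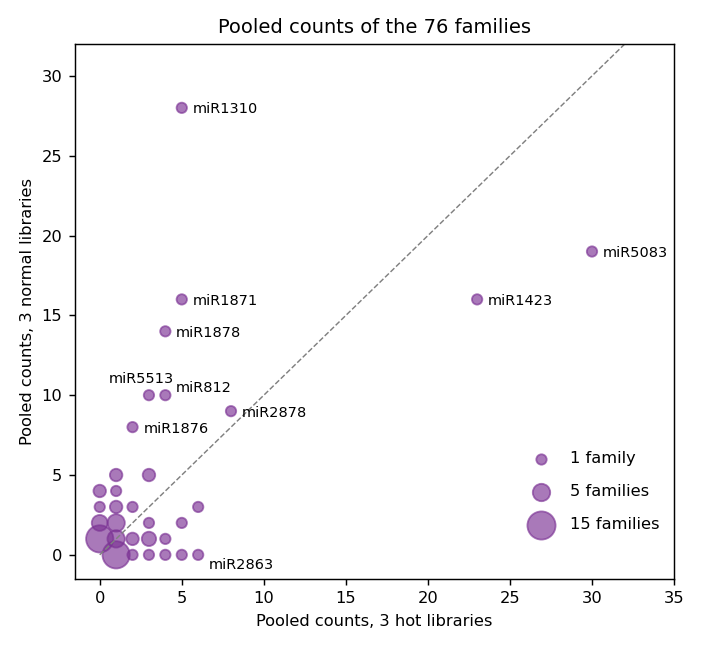
Pooled counts of each of the 76 families in the 3 hot libraries (horizontal axis) and the 3 normal libraries (vertical axis). Point size shows how many families share a position, and the dashed line marks equal raw counts, with no scaling for depth. miR1310 lies farthest above the line, and most families lie near the origin.

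The next families by pooled count showed no contrast beyond counting error under either scaling. miR2878 had 2, 2 and 4 counts in hot libraries, against 5, 0 and 4 in normal libraries. miR1428 had 0, 3 and 3, against 2, 0 and 1, with all 6 hot counts in mir1428e-3p. miR2871 had 1, 0 and 2, against 2, 2 and 1, and miR3979 had 0, 1 and 2, against 3, 1 and 1. miR1320, reported in rice to act on an ERF transcription factor gene in the cold response, had 0, 3 and 2, against 0, 2 and 0. miR1870 and miR1883 each had 1 count in hot libraries, in hot library 3, against 5 in normal libraries. miR1848, described in rice as acting on a sterol demethylase gene, had 0, 0 and 1, against 1, 0 and 1. Below these, 28 of the 76 families consisted of a single count.

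**Figure D5:**
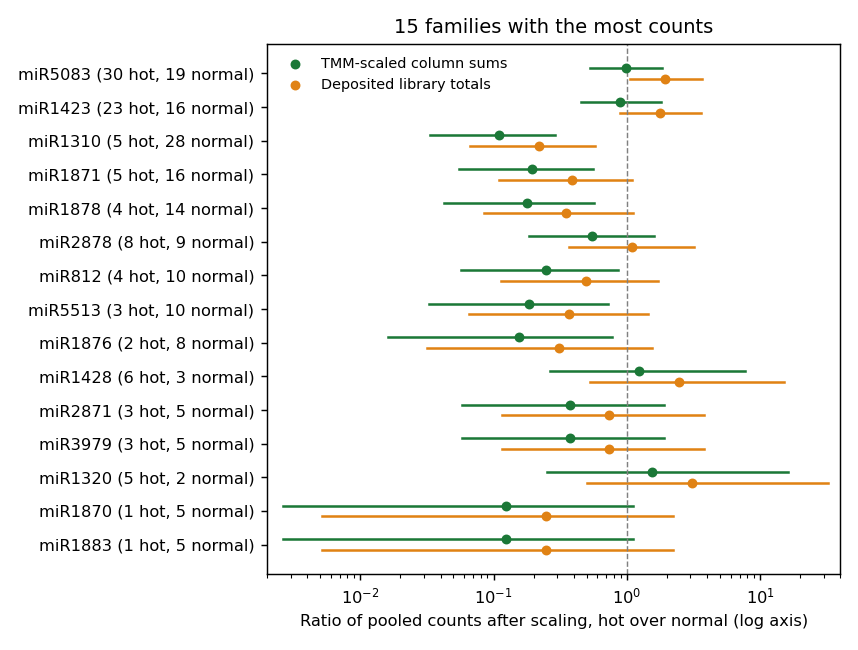
Ratio of pooled counts, hot over normal (logarithmic horizontal axis), for the 15 families with the most counts, after scaling by TMM-scaled column sums (fit on names) or by the deposited library totals. Points are ratios, bars are exact binomial 95% intervals for counting error, and the dashed line marks 1. Both bars of miR1310 lie below 1.

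By number, counts were spread over all ranges present. The 25 families numbered from 1000 to below 2000 had 74 counts in hot and 120 in normal libraries. The 24 families numbered from 5000 to below 6000 had 52 counts in hot and 48 in normal libraries, with 10 families in hot libraries alone and 7 in normal libraries alone. The 13 families numbered from 2000 to below 3000 had 30 counts in hot and 23 in normal libraries. The 7 families numbered 6000 or above had 4 counts in hot and 14 in normal libraries. No family numbered from 500 to below 600 was among the members.

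Names that give the arm of the hairpin were 15 on the 5p and 17 on the 3p side, and 7 hairpins had both arms in the table. No arm of these 7 exceeded 4 pooled counts in a group, so a preferred arm could not be read from them. For miR1857 the 5p name had 4 counts in hot and 0 in normal libraries, against 0 and 1 for the 3p name. For mir812n the 3p name had 0 counts in hot and 4 in normal libraries, and the 5p name had 1 and 1. Sharing of reads was common: 35 of the 115 names, in 10 families, had a row identical to another row of the family, and 91 distinct count patterns remained.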

How the data were processed

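Per the file headers, the authors deposited a raw and a normalised expression column per library. Raw values are whole numbers and were taken as deposited read counts for each miRNA name. The deposited normalised score is the count per 1000000 of 1 total per library, which was recovered from rows with a count above 20 (median). The labels and headers name no matching tool, miRNA release or genome build, and no sequences were used. Columns were tied to libraries by the sample descriptions.

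A family sum adds rows with identical counts once. Distinct patterns are rows of a family that are not equal to, or whole multiples of, a smaller row. All names (641) and all families (113) were fitted in R 4.3.3 by edgeR 4.0.16, using filterByExpr, TMM and the quasi-likelihood F test with a group term alone and Benjamini-Hochberg adjustment. The fit was tested on simulated data first. The standard error is the absolute log2 fold change over the square root of F. DESeq2 1.42.0 and limma-voom (limma 3.58.1) were alternatives. Pooled ratios have exact Clopper-Pearson 95% intervals converted to a ratio, scaled by TMM-scaled column sums or by the library totals. The TMM-scaled column sums were those of the fit on names, also for families. Values per library were compared by exact two-sided permutation of group means. Expected detections at a common depth are hypergeometric probabilities. No p-value was adjusted over the rare families alone.

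Members and lists were chosen with earlier results of these data known. Named were the 15 families with the most counts, families seen in all 3 libraries of 1 group alone, and the fixed lists (miR2118 and miR2275, miR437 with miR806 to miR819, and miR530). The other families named were chosen after their values were seen. Same-numbered libraries did not deviate together: the correlations of their deviations over the 253 tested names were 0.34, -0.30 and -0.07, so the replicate number was not used as a pairing.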

Additional observations from a re-analysis of the deposited data

How the results depend on the processing

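Fits with the filter on low counts tested none of the rare names or families, whatever the scaling, test or library left out, so they say nothing about change. Without the filter, all by edgeR unless named, 1 rare name (mir1310) was called without hot library 1 (of 79 called among 627 names) and 1 without normal library 3 (of 66 among 622). In the same way 1 rare family (miR1310) was called by DESeq2 (of 11 among 113 families), by limma-voom (of 7 among 113), with the replicate block (of 8 among 113) and without hot library 1 (of 11 among 110). The fits without a filter combined with these settings were added after seeing the data. With the replicate block the difference in detected names was -14.0 (exact sign-flip p = 0.25, the smallest this test allows). In detected families it was -3 (exact sign-flip p = 0.75). The summed level then differed by -18.8 per 1000000 of the library total (exact sign-flip p = 0.75). Leaving out each library in turn moved the difference in names from -22.8 to -6.83, in families from -9.67 to 2.33, and in the summed level from -65.6 to 10.9. The summed level differed by -58.7 with sums of all names, by -41.5 without miR5083 and by 8.67 without miR1310, the last added after seeing the data. At a minimum of 2 counts the detection difference was -4.33 names and -3 families, and at a minimum of 3 counts -2 names and -2 families. For both minimums the exact permutation p was 0.5 for names and 0.6 for families. At a minimum of 10 counts, which mir5083 and mir1310 alone reached, the difference was 0 for names and 0 for families. The ratio of all pooled rare counts, hot over normal, was 0.475 with TMM (95% interval 0.387 to 0.583) and 0.945 with the library totals (0.770 to 1.16). Without each library in turn it ran from 0.419 to 0.543 with TMM. By library, the summed level per 1000000 of the TMM-scaled column sum was 230, 157 and 238 in hot libraries. In normal libraries it was 533, 393 and 397, so the groups were apart on this scale too. Depth limits all of this: with a median of 2 counts per name, most single names were too low for a fold change.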
